A study of Homo sapiens with 4 samples.

Results

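The regions described here are the ChIP-seq peaks on chromosomes 9 and 13 of K562, a human cell line derived from chronic myeloid leukemia. ChIP-seq recovers the DNA bound by a protein with an antibody and sequences it, and a peak is a place where more fragments (tags) pile up than an input library, sequenced without the antibody, predicts. Every row on these chromosomes was taken from the peak lists of both ChIP libraries, which gave 830 of 19536 peaks: 587 of 12662 with the label HA and 243 of 6874 with the label WT. The rows were therefore chosen by being called, at a p-value of 0.005 or less. The weakest members of the lists had a −log10 p of 2.31 and 2.33, and places below the cutoff were not analysed here.

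The K562 cells overexpressed either HA-PHF6 or HA and were otherwise untreated, and an HA-tag antibody was used on both. PHF6 is a chromatin-associated zinc finger protein mutated in T-cell leukemia. The titles name the libraries HA and WT without saying which held HA-PHF6, so the libraries are called by their labels. There was 1 ChIP library per condition with its own input, so no difference between the libraries could be set against a spread between replicates, and no test was run. The label HA rested on 16132466 tags in the ChIP and 23134375 in the input after filtering of duplicates, and the label WT on 22257947 and 24567954. The background at a peak is the number of tags that the input predicts at its summit, and it was computed from the deposited pileup and fold enrichment. It cannot fall below the genome-wide background, which came to 1.05 tags for the label HA and 1.68 for the label WT. Peaks on this scale rest on few tags, with a median pileup on chromosome 9 of 5 and 8 tags. The intervals below cover counting error only.

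K562 is known for an uneven genome. It has lost CDKN2A and its surroundings from the short arm of chromosome 9 (9p), where CDKN2A encodes the cell cycle inhibitor p16INK4a and the p53 activator p14ARF. It carries extra copies of the fusion of BCR on chromosome 22 with ABL1 near the end of the long arm (9q), which encodes the tyrosine kinase that drives the disease. Parts of chromosomes 9 and 13 are present in few copies, and ChIP tags and input tags both depend on how many copies of a place a cell holds.

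A short set of sequences marks the places to which the results return. The window of LOC124903191 from RefSeq (GRCh38.p14, chr13:94549492-94549791, plus strand) holds the tRNA gene TRF-GAA1-5, printed in capitals, and lies at the second strongest peak labelled HA on chromosome 13.
LOC124903191 window: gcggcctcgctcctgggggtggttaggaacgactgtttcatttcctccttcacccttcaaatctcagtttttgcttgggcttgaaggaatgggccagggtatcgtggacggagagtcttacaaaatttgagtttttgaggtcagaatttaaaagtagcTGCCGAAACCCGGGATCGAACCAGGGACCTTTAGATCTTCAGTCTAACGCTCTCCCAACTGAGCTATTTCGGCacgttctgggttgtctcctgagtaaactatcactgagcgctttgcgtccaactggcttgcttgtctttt
The promoter window of TRUB2, which encodes a pseudouridine synthase (chr9:128322398-128322697, minus strand), is shown because its peak stood on a high background outside the ABL1 segment. The capitals are the 217 bases inside the peak.
TRUB2 window: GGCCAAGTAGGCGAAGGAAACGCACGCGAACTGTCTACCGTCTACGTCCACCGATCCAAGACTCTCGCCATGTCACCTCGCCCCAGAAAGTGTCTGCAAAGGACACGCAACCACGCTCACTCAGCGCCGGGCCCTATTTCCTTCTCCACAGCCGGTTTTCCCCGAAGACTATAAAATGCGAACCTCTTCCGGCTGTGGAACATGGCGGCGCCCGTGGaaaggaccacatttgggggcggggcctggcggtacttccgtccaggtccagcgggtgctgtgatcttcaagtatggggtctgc
The microRNAs of MIR17HG lie in the segment of raised background on chromosome 13 and miR-31 in the peak-free part of 9p. Their seeds, bases 2 to 8, are in capitals.
hsa-miR-17-5p: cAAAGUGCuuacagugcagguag
hsa-miR-20a-5p: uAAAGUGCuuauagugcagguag
hsa-miR-18a-5p: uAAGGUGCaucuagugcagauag
hsa-miR-19a-3p: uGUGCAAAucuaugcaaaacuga
hsa-miR-19b-3p: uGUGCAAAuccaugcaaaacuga
hsa-miR-92a-3p: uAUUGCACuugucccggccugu
hsa-miR-31-5p: aGGCAAGAugcuggcauagcu
miR-17-5p and miR-20a-5p share a seed, as do miR-19a-3p and miR-19b-3p.

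Peaks were sparse on both chromosomes. Chromosome 13 had the lowest peak density of the 22 autosomes in either list, with 2.08 peaks per Mb (95% exact Poisson interval 1.81 to 2.39) with the label HA and 0.624 (0.478 to 0.80) with the label WT. Chromosome 9 ranked 3 and 5 from the lowest, with 3.08 peaks per Mb (2.78 to 3.41) and 1.47 (1.26 to 1.70). The other 20 autosomes together had 4.56 peaks per Mb labelled HA and 2.46 labelled WT, and single chromosomes ranged from 3.01 to 5.89 and from 0.759 to 5.09. Chromosome 9 thus reached 0.676 times their density (0.609 to 0.749) with the label HA and 0.597 times (0.512 to 0.692) with the label WT. For chromosome 13 the ratios were 0.457 (0.396 to 0.524) and 0.254 (0.194 to 0.326).

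**Figure D1:**
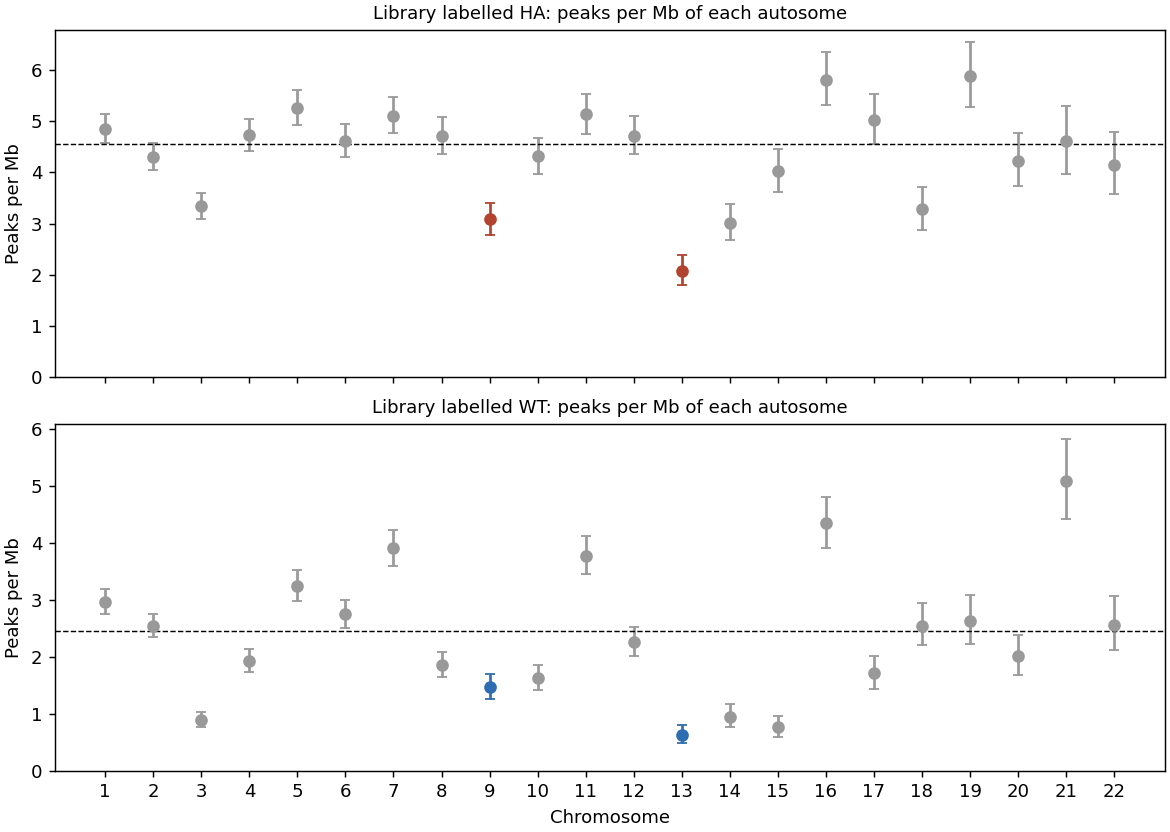
Peaks per Mb (vertical axis) on each autosome (horizontal axis) in the library labelled HA, top, and labelled WT, bottom, with 95% exact Poisson intervals as bars; chromosomes 9 and 13 are coloured and the dashed line is the density of the other 20 autosomes. Chromosome 13 lies lowest in both panels, at 2.08 and 0.624 peaks per Mb.

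Few of these peaks were strong, as in the whole lists. The q-value was under 0.05 for 13 of 380 peaks labelled HA on chromosome 9 and for 5 of 207 on chromosome 13, 3.42% and 2.42% where the whole list had 5.08%. In the library labelled WT it was under 0.05 for 7 of 181 and 1 of 62 peaks, 3.87% and 1.61% where the whole list had 6.24%. The Wilson intervals of the label HA, 2.01% to 5.76% and 1.04% to 5.53%, included the share of the whole list. Those of the label WT, 1.89% to 7.77% and 0.285% to 8.59%, did so too. The lists met at 3 places on chromosome 9, where 5 of 380 summits labelled HA (1.32%, against 1.67% of the whole list) overlapped a peak labelled WT. On chromosome 13, 0 of 207 did, which allows a share of up to 1.82% at the upper Wilson bound. In the other direction, 3 of 181 peaks labelled WT on chromosome 9 overlapped a peak labelled HA (1.66%, against 3.08% of that list) and 0 of 62 on chromosome 13.

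Gene content differed between the chromosomes. Chromosome 13 had 3.40 protein-coding genes per Mb, chromosome 9 had 6.31 and the other autosomes 7.05, and the median coding gene was longer on chromosome 13, at 45.7 kb against 24.7 and 24.2 kb. Of the coding genes on chromosome 9, 144 of 778 held a peak labelled HA, and on chromosome 13, 62 of 338, which is 18.5% and 18.3% beside 18.4% of all autosomal coding genes. With the label WT, 76 of 778 (9.77%) and 14 of 338 (4.14%, Wilson interval 2.48% to 6.83%) held one, beside 8.9% of all. The low density held in gene bodies and between them. Within coding genes of chromosome 13 there were 2.35 peaks per Mb labelled HA (1.85 to 2.93) and between them 1.95 (1.63 to 2.32), while the other autosomes had 4.45 and 4.64.

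Along chromosome 9 the density fell and rose from segment to segment. The bounds of the following segments were set after the values were seen. From the tip of 9p to 20 Mb, 51 peaks labelled HA and 6 labelled WT were found, 2.55 (1.90 to 3.35) and 0.300 (0.110 to 0.653) per Mb. From 20 to 35 Mb there were 11 and 4, which is 0.733 (0.366 to 1.31) and 0.267 (0.0727 to 0.683) per Mb. The inner part from 35 to 43 Mb rose to 2.50 and 2.63 peaks per Mb. On 9q the stretch from 60 to 90 Mb held 64 and 12 peaks, 2.13 (1.64 to 2.72) and 0.400 (0.207 to 0.699) per Mb. From 90 Mb to the end, 230 and 132 peaks gave 4.76 (4.16 to 5.42) and 2.73 (2.29 to 3.24) per Mb.

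The outer part of 9q was not detectably different from the other autosomes, at 1.04 times their density (0.912 to 1.19) with the label HA and 1.11 times (0.928 to 1.32) with the label WT. The part from 60 to 90 Mb had 0.448 times (0.334 to 0.594) and 0.146 times (0.0738 to 0.265) the density of the part beyond it. With the label WT the bin from 85 to 90 Mb held 2 peaks and the bin from 90 to 95 Mb held 15. In the library labelled HA both bins held 13, while the share of them at the genome-wide background was 76.9% and 30.8%. That share was 16.7% between 95 and 100 Mb and 76.2% between 100 and 105 Mb, so it made no lasting step at 90 Mb.

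Peaks were sparser on 9p than on 9q as a whole. The part of 9q from 60 to 90 Mb, at 2.13 and 0.400 peaks per Mb, was close to 9p with the label HA and below it with the label WT. Up to 43 Mb, where the arms were divided, 82 peaks labelled HA and 31 labelled WT lay on 9p, 1.91 (1.52 to 2.37) and 0.721 (0.490 to 1.02) per Mb. On 9q 298 and 150 peaks lay, 3.71 (3.30 to 4.16) and 1.87 (1.58 to 2.19) per Mb, excluding the gene-free heterochromatin. The density on 9p was 0.514 times that on 9q (0.398 to 0.658) with the label HA and 0.386 times (0.253 to 0.571) with the label WT. The 9p peaks labelled WT were unevenly placed, since 18 of the 31 lay between 35 and 40 Mb, the bin in which the background of peaks labelled HA was also raised, with 16.7% of them at the genome-wide level.

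Around CDKN2A there were no peaks at all. In both lists together nothing was called from chr9:19755594-26694254, a stretch of 6.94 Mb. At the density of the other autosomes it would hold 31.6 peaks labelled HA and 17.1 labelled WT. The neighbouring part of 9p was itself sparse, however. With bounds set after the values were seen, the density from 20 to 35 Mb was compared with that up to 20 Mb. It was 0.288 times as high (0.135 to 0.559) with the label HA. With the label WT it was 0.889 times as high (0.184 to 3.75), so that list showed no detectable local drop. The stretch was bounded by peaks and picked for its width, so its count of 0 was fixed in advance. The 5 Mb bin from 20 to 25 Mb, which holds CDKN2A, had 0 peaks in each list. Its exact Poisson interval reached 0.738 peaks per Mb. The stretch holds 27 protein-coding genes, of which 16 are interferon genes of the type I cluster, and 4 microRNA genes with MIR31 among them. A second peak-free stretch followed at chr9:26983512-31866452, with a length of 4.88 Mb and 9 coding genes, where 22.3 and 12 peaks would be found at the density of the other autosomes. Between them lay 3 peaks labelled HA and 1 labelled WT, near CAAP1 and PLAA. The 3 labelled HA had 4, 6 and 5 tags at the summit, and the 1 labelled WT had 6. The only longer peak-free stretch of the chromosome, 15.9 Mb around the centromere, holds no annotated gene.

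The 12 genes listed for 9p21 were chosen with earlier results of these data known, and all lie in the 2 peak-free stretches. Their lack of a peak therefore adds nothing to those stretches. All 12 were without a peak in either library, where 18.4% of all autosomal coding genes held one labelled HA and 8.9% one labelled WT. Beside CDKN2A these are CDKN2B, which encodes p15INK4b, MTAP of the methionine salvage pathway, the interferon genes IFNB1 and IFNE, the ubiquitin ligase adaptor KLHL9, FOCAD, the transcription elongation gene MLLT3, DMRTA1, the RNA-binding protein gene ELAVL2, TUSC1 and LINGO2. The nearest peak to CDKN2A lay 2212159 bp away with the label HA and 4698931 bp away with the label WT. For LINGO2, in the second stretch, the distances were 954106 and 1243077 bp. MLLT3 was the listed gene closest to a peak labelled HA, at 586076 bp. A place that is missing from the cells gives no tags in ChIP or input, and the peak lists alone cannot tell such a place apart from one without enrichment. Nor can fewer copies and less recovery per copy be told apart where peaks were sparse.

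Peak density also varied along chromosome 13, described here in parts whose bounds were set after the values were seen. Up to 80 Mb there were 121 peaks labelled HA and 13 labelled WT, 1.86 (1.54 to 2.22) and 0.200 (0.106 to 0.342) per Mb. From 95 Mb to the end there were 50 and 10, 2.58 (1.92 to 3.41) and 0.517 (0.248 to 0.95) per Mb. Within that last part the bin from 110 Mb held 20 peaks labelled HA and, at 4.6 per Mb (2.81 to 7.10), was the densest of the chromosome with the label HA but held 1 peak labelled WT. From 80 to 90 Mb there were 18 and 10, 1.80 (1.07 to 2.84) and 1 (0.480 to 1.84) per Mb. Between 90 and 95 Mb the lists held 18 and 29 peaks, 3.60 (2.13 to 5.69) and 5.80 (3.88 to 8.33) per Mb. Against the part up to 80 Mb this is 1.93 times (1.11 to 3.19) with the label HA and 29.0 times (14.6 to 60.8) with the label WT. The bin from 90 to 95 Mb was picked with its count known, so these ratios are only a description. The median count over the 20 bins used was 10 peaks labelled HA and 2 labelled WT, and 5 bins had no peak labelled WT.

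The listed genes of chromosome 13 other than MIR17HG, GPC5 and GPC6 had peaks of 4 to 11 tags or none. RB1, whose product restrains entry into S phase, held a peak labelled HA with 5 tags and a fold enrichment of 2.51. BRCA2 of homologous recombination held 1 with 4 tags and FOXO1, a forkhead transcription factor gene, 1 with 5 tags. DLEU2, the host of miR-15a and miR-16-1, held 2 with 6 tags each. LCP1, which encodes the actin bundling protein plastin 2 of blood cells, held a peak labelled WT with 11 tags, a fold enrichment of 2.73 and a q-value above 0.05 (−log10 q 0.138). The receptor kinase gene FLT3, the homeobox genes PDX1 and CDX2, KLF5 and HMGB1 held none in either list. Of these 10 genes 4 held a peak labelled HA and 1 a peak labelled WT, and with MIR17HG, GPC5 and GPC6 it was 7 and 2 of 13. Of all autosomal coding genes 18.4% and 8.9% held one, but the list was chosen with earlier results of these data known.

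The background also varied along the chromosomes. It was at the genome-wide level for 158 of 207 peaks labelled HA on chromosome 13 (76.3%, Wilson interval 70.1% to 81.6%) where the whole list had 52%, the highest share among the autosomes. On chromosome 9 it was for 217 of 380 (57.1%, 52.1% to 62.0%). In the library labelled WT the shares were 49 of 181 (27.1%) and 11 of 62 (17.7%) beside 22.7% in the whole list, so chromosome 13 did not stand high in that list. Without the raised segments described next, 42.3% of the remaining 26 peaks were at the genome-wide level. On 9p up to 20 Mb 78.4% of the peaks labelled HA were at this level (65.4% to 87.5%), from 60 to 90 Mb 73.4% (61.5% to 82.7%), and beyond 90 Mb 50% (43.6% to 56.4%).

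A background of at least 3 times the genome-wide level was found at 17 peaks on chromosome 9 and 11 on chromosome 13 in the library labelled HA, which is 4.47% and 5.31% where the whole list had 4.98%. In the library labelled WT it was found at 8 peaks on chromosome 9 and 36 on chromosome 13, 4.42% and 58.1% (45.7% to 69.5%) where the whole list had 8.82%. Runs of at least 3 neighbouring peaks of this kind, counted over both lists, formed 1 segment on chromosome 9 and 3 on chromosome 13. A run ended at the first peak of either list below 3 times, so lower peaks beside the segments follow from the rule. The limit of 3 times was set after the values were seen.

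The segment on chromosome 9 lay at ABL1, at chr9:130756490-131058324, with 4 peaks in each list over 0.302 Mb. At ABL1 itself the library labelled HA had a peak from 130756490 to 130756891 with summits of 20 and 19 tags on backgrounds of 10.5 and 9.76 tags. FIBCD1, which encodes an acetyl-binding receptor, held a peak labelled HA of 32 tags on 12.6, and peaks labelled WT of 26 and 23 tags on 15.4 and 13. The peak labelled HA at LAMC3, a laminin chain gene, had 28 tags on 16.7. The peak with the most tags in the segment, labelled WT and outside any annotated gene, had 51 tags on 23.6. These backgrounds were 9.33 to 16 times the genome-wide level with the label HA and 7.73 to 14.0 times with the label WT.

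The background is known only at peaks, so where it ceased to be raised was not measured. The nearest peaks before the segment, at 130521902 and 130497238, were at the genome-wide level (label HA) and at 1.08 times that level (label WT). After it the background was 1.88 times at 131394374 with the label HA and 1.14 times at 131842099 with the label WT, which are 336 and 784 kb past its end. FUBP3, PRDM12 and the exosome gene EXOSC2, which precede ABL1, the neuropeptide gene QRFP, and AIF1L and the nuclear pore gene NUP214, which follow LAMC3, held no peak, nor did SPOUT1 and TSC1. NTNG2, farther out, held a peak labelled WT of 6 tags with a background of 1.15 times the genome-wide level. The 5 Mb bin that holds ABL1 had 32 peaks labelled HA and 18 labelled WT, and no other bin of chromosome 9 held more peaks in either list, although the bin from 35 to 40 Mb also held 18 labelled WT and the shorter last bin was denser with the label HA, at 8.70 per Mb.

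Chromosome 13 had 3 raised segments. The first, chr13:80526761-80838609, held no coding gene, and had 5 peaks labelled WT and 0 labelled HA. It lay apart from the others, which were at MIR17HG and GPC5. The second, chr13:89889638-91717331, held 22 labelled WT and 6 labelled HA over 1.83 Mb. The third, chr13:92361085-92591372, held 9 labelled WT and 3 labelled HA within GPC5, a glypican gene of the cell surface. Together they held 36 of the 62 peaks labelled WT on the chromosome (58.1%, 45.7% to 69.5%) and 9 of the 207 labelled HA (4.35%, 2.30% to 8.06%). Outside them the library labelled WT had 26 peaks on chromosome 13, 0.262 per Mb.

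The rule for a run requires a lower peak between segments, and those found included peaks at the genome-wide level. Between the second and the third, within GPC5, a peak labelled WT at 91831916 and peaks labelled HA at 91977232 and 92131083 had a background no higher than genome-wide, with 7, 5 and 7 tags. After the third segment a peak labelled WT at 93182414 had 1.08 times the genome-wide background, and a single peak labelled HA at 93366363 in GPC6 had 5.55 times. The peaks on either side of the first segment, at 79891769 and 81319573 with the label HA, were at the genome-wide level. MIR17HG, the host of the miR-17-92 cluster whose sequences are given above, held a peak labelled HA from 91348804 to 91349109, upstream of its microRNAs, with 22 tags on a background of 12.3 and a fold enrichment of 1.72. The library labelled WT had none there.

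The segments were chosen by background, so a peak called there had to hold more tags and could pass with a lower fold enrichment, and the following medians are a description. On chromosome 13 the peaks labelled WT inside them had a median of 19 tags and a median fold enrichment of 2.02, and those outside 7.5 tags and 2.95. With the label HA the medians were 15 tags and 2.34 inside and 5 tags and 2.93 outside. At ABL1 the medians were 24 tags and 1.85 with the label HA and 27 tags and 1.81 with the label WT. The q-value was under 0.05 for 1 of 13 peaks labelled HA in the 4 segments (7.69%) and 2 of 40 labelled WT (5%), beside 5.08% and 6.24% of the whole lists. These were the peak labelled HA at FIBCD1, the peak labelled WT of 51 tags, and a peak labelled WT of 30 tags at LINC00379.

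**Figure D2:**
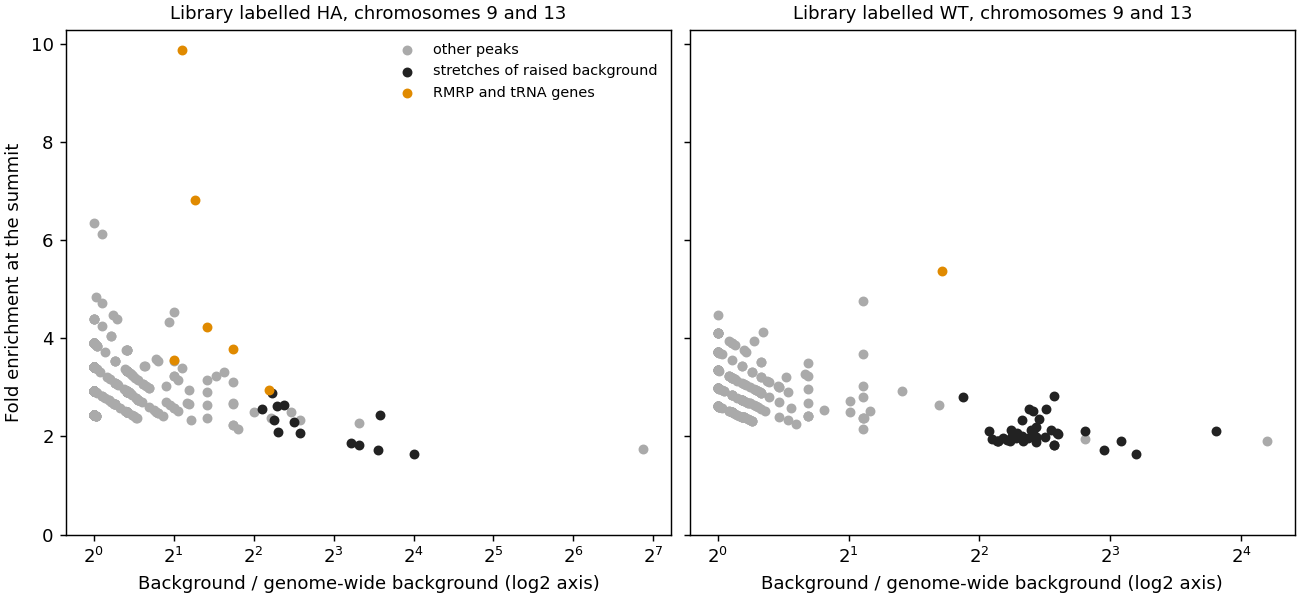
Fold enrichment at the summit (vertical axis) against background divided by the genome-wide background (horizontal axis, log2 scale) for every peak on chromosomes 9 and 13, labelled HA, left, and WT, right; black points lie in the segments of raised background and orange points at RMRP or tRNA genes. Black points lie below a fold enrichment of 3, and the highest orange point, at TRE-TTC2-1, reaches 9.87.

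The peak caller takes the background from the largest of 4 levels: the genome-wide one and the input at the summit, over 1 kb and over 10 kb. Each level moves in steps of 1 input tag, so that the level used can be read back from the value. Where 10 kb set the background, many input tags stood behind it. At ABL1 the values labelled WT rested on 613 and 672 input tags per 10 kb, where the genome-wide level equals 79.3, which is 7.73 times (7.13 to 8.37) and 8.48 times (7.85 to 9.14). In the chromosome 13 segments the 21 such values labelled WT ranged from 4.20 to 6.04 times, on 333 to 479 tags. The 4 labelled HA ranged from 4.76 to 5.69 times, on 355 to 425 tags where the genome-wide level equals 74.6. The 2 inputs are separate libraries, and the ranges from them overlapped. All these values come from segments chosen for a high background over both lists, which by itself brings the ranges closer. At ABL1 and in the first segment of chromosome 13 the label HA gave no value from 10 kb. At BCR on chromosome 22, the other partner of the fusion, the values of this kind were 5.79 and 8.24 times with the label HA and 6.76 and 7.36 times with the label WT.

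The largest of several levels is taken and only peaks are seen, so these ratios are no estimate of copy number. The ABL1 backgrounds labelled HA came from the summit itself, on 14 to 24 input tags.

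High backgrounds also occurred outside the segments. Of the 17 peaks labelled HA on chromosome 9 with at least 3 times the genome-wide background, 13 lay outside the ABL1 segment, and 0 of these 13 took it from 10 kb, while 9 took it from the summit and 4 from 1 kb. On chromosome 13, 2 lay outside, of which that in GPC6 took it from 10 kb, on 414 input tags. Of the 13 on chromosome 9, 7 overlapped a promoter window of 300 bases, as did 16 of all 380 peaks labelled HA on that chromosome (4.21%, 2.61% to 6.73%) and 3.04% of the whole list on chromosomes with such windows. The 7 were at the windows of BICD2, TBC1D2, CDK9, which encodes the kinase of the elongation factor P-TEFb, TRUB2, the fatty acid transporter gene SLC27A4, DYNC2I2 and the mannosyltransferase gene POMT1. The peak at the SLC27A4 window is the same as that at the tRNA gene TRR-TCT3-1, described below. At TRUB2, whose window is printed above, 25 tags stood on a background of 10.5, which gave a 2.27-fold enrichment with a −log10 q of 0.423. The 4 peaks labelled WT outside the segment overlapped 0 promoter windows, where 3 of all 181 on the chromosome (1.66%) and 0.742% of the whole list did. Over all promoter windows of chromosome 9, 22 of 1584 (1.39%) met a peak labelled HA and 3 (0.189%) a peak labelled WT, beside 1.3% and 0.148% of all windows. On chromosome 13 it was 9 and 1 of 892 (1.01% and 0.112%).

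RMRP and NOTCH1 were the annotated genes at which peaks of both lists overlapped. RMRP, the RNA of the RNase MRP complex that RNA polymerase III transcribes, lies on 9p at chr9:35657750-35658019 and was 1 of the 3 places found in both lists. It had 34 tags and a fold enrichment of 5.37 in the library labelled WT (−log10 q 11.1) and 16 tags and 3.79 in the library labelled HA (−log10 q 2.25), with summits 125 bp apart. Its background was 3.28 and 3.33 times the genome-wide level. NOTCH1, the receptor gene that is often mutated in T-cell leukemia, held a region of 1528 bp labelled HA from 136496006 to 136497533 with 3 summits. These had 12, 12 and 13 tags and fold enrichments of 6.35, 6.13 and 4.53, and the first was the highest on chromosome 9 in that list (−log10 q 5.14). A peak labelled WT of 8 tags and a fold enrichment of 3.34 (−log10 q 0.220) lay in the same place, with its summit 19 bp away. The last shared place, at chr9:60617501-60617701, had 6 tags in either library and no annotated gene.

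On chromosome 13 the 2 highest fold enrichments labelled HA were at tRNA genes. Of the 6 tRNA genes annotated on chromosomes 9 and 13, 5 held a peak labelled HA and 0 a peak labelled WT, beside 57.8% and 2.03% of all tRNA genes. TRE-TTC2-1 had 31 tags and a fold enrichment of 9.87 (−log10 q 19.4), and TRF-GAA1-5 had 23 tags and 6.81 (−log10 q 10.0). TRE-TTC1-2, within ELF1, had 15 tags and 4.22 (−log10 q 2.77). TRN-GTT2-4 had 10 tags and 3.56, and TRR-TCT3-1 on chromosome 9 had 16 tags and 2.95. The q-values of both were above 0.05 (−log10 q 0.651 and 0.701). TRH-GTG1-6, on 9p, had no peak. In the window of TRF-GAA1-5 printed above, the letters of the B box (GGTTCGA, any 2 bases, then CC), an internal promoter element of tRNA genes, were found on the opposite strand as GGTTCGATCCC. They were found on either strand in 65 of 35116 windows (0.185%).

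The other peaks labelled HA among the top 8 of a chromosome with a q-value under 0.05 were at TRIM14 (9 tags, fold enrichment 4.84) and SNAPC4 (9 tags, 4.71), which encodes a subunit of the complex that activates small nuclear RNA genes. Without an annotated gene were those at 98854105 (12 tags, 4.33) and 95380506 (9 tags, 4.48) on chromosome 9 and at 110944124 (8 tags, 4.4) on chromosome 13. A peak at FAM230C, near the centromere of chromosome 13, had 215 tags and the third highest −log10 q of that chromosome, 8.66, but its fold enrichment was 1.75 on a background of 123 tags. The other peaks labelled WT among the top 8 of chromosome 9, beside the 1 in the ABL1 segment, were at GSN, the gene of the actin-severing protein gelsolin (12 tags, fold enrichment 4.14), at RABGAP1 (11 tags, 3.95), at LOC124902179 (60 tags, 1.92), and at 3 places without an annotated gene close to the centromere, of which that at 60673522 had 21 tags and a fold enrichment of 4.76 (−log10 q 5.26). The q-value of the peak at RABGAP1 was above 0.05 (−log10 q 1.27). On chromosome 13 the peak at LINC00379 ranked highest with the label WT (−log10 q 2.42). ZIC2, a zinc finger transcription factor gene, held a peak labelled WT of 10 tags and a fold enrichment of 3.76 with a q-value above 0.05.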

How the data were processed

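Peaks came from K562 ChIP with an HA-tag antibody, 1 library per condition with its own input. Per the file headers the authors ran MACS 2.1.0.20150420 on alignments whose names mark them as unique and deduplicated, each ChIP library against its own input and without pooling, with a p-value cutoff of 0.005, an extension of 201 bp (HA) or 234 bp (WT) and a genome size of 3099750718. The submitters' processing notes name BWA 0.7.12 and MACS2 2.1.0, and no genome build is given in the sources used here. The deposited signal is the pileup in tags at the summit. The deposited fold enrichment is the ratio of pileup to local background, each with 1 added. The deposited p-value and q-value are on the −log10 scale, and the deposited length is in bp. The file headers say that q-values would not be computed, yet the column holds values, which were used as deposited.

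The background was (pileup + 1) / fold enrichment − 1, and recomputed Poisson p-values were within 0.01 of the deposited −log10 p for 100% of the members. A background was assigned to a window where it was within 0.001 tags of a whole number of input tags. About 1 in 10 of the values from 10 kb also matches 1 kb and was counted there. Densities divided all peaks by the length of the 5 Mb bins with at least 20 genes of the RefSeq table of GRCh38.p14, whose chromosome names the files use. That table gives no exons, so exonic positions were not analysed here. Peaks of other autosomes in bins with fewer genes stayed in the counts. With the length of all bins, the ratios to the other autosomes were 0.618 (HA) and 0.546 (WT) for chromosome 9. For chromosome 13 they were 0.407 and 0.226. Overlap meant at least 1 bp. Intervals are 95% exact Poisson, exact conditional for ratios, and Wilson for shares. Promoter windows run from 250 bases before to 50 after a start, and sequences are from RefSeq. The members and gene lists, which also take in for each chromosome and list the top 8 peaks by −log10 q, were chosen with earlier results of these data known. Steps were tested on simulated data. The software was scipy 1.17.1, numpy 2.4.6, pandas 2.3.3, matplotlib 3.10.9 and Python 3.11.15.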

Additional observations from a re-analysis of the deposited data

How the results depend on the processing

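The density ratios of both chromosomes to the other autosomes stayed below 1 under every setting tried, but with the label WT the interval of chromosome 9 reached 1.01 at a q-value under 0.05 and 1.43 at the limit of 5 for −log10 q. The limit of a q-value under 0.05 and the removal of the raised segments were chosen after seeing the data. With a fold enrichment of at least 3, 174 peaks labelled HA and 79 labelled WT were left, the density ratio of chromosome 13 to the other autosomes was 0.325 and 0.111, and that of chromosome 9 was 0.696 with the label WT. With a q-value under 0.05, 18 and 8 peaks were left. The ratio was then 0.502 and 0.483 for chromosome 9 and 0.239 and 0.0857 for chromosome 13. The ratio of 9p to 9q was 0.340 (0.0366 to 1.56) with the label HA, on 2 and 11 peaks. With the label WT it was 0.311 (0.00677 to 2.57), on 1 and 6 peaks, so both intervals included 1. At the stricter limit of 5 for −log10 q, only 4 and 2 peaks were left, with ratios of 0.0806 and 0.387 for chromosome 9 and 0.300 and 0 for chromosome 13. The ratio of 9p to 9q was then 0 with the label HA and 1.87 with the label WT, where each arm held 1 peak. Without the raised segments the ratio of chromosome 13 labelled WT was 0.106. The cause of these shifts was not tested. In all, 35 values, the ratio of 0.311 among them, moved by less than 1.5 times for counts or stayed inside their intervals. The other 21 values moved further.

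No paired analysis was possible because the conditions have a single ChIP library each. Peaks of 4 to 8 tags limit what can be seen, and the lists give the background only where a peak was called.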
